A study of Homo sapiens with 6 samples.

Results

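Purine and pyrimidine synthesis was followed through 10 enzyme genes in A375, an established human melanoma cell line grown as a monolayer. The genes were chosen by name, from knowledge of the pathways and with earlier results of these data known. They were PRPS1, PRPS2, PPAT, PAICS, IMPDH1 and IMPDH2 of the purine route, and CAD, DHODH, UMPS and CTPS1 of the pyrimidine route. All 10 were measured, among 18417 genes in all, each through the only probe set of the array that names that gene and no other. Cells had been exposed for 24 h either to vemurafenib at 10 µM, a small-molecule kinase inhibitor given to patients with melanoma, or to its vehicle, 0.1% DMSO. Each group held 3 single-colour Affymetrix arrays, made from 3 cell stocks on 3 different days, so the replicates are separate cultures of a single line. A value is a log2 level as the authors deposited it, and a change is the vemurafenib mean minus the vehicle mean of those levels. A gene rose or fell where limma gave an adjusted p under 0.05 after Benjamini-Hochberg adjustment over all 18417 genes.

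Cells make nucleotides from small precursors or recover them by salvage. In the purine route, phosphoribosyl pyrophosphate is built up step by step into IMP, which is then turned into AMP or GMP. In the pyrimidine route, a ring is formed before the sugar is attached, giving UMP, and UTP is finally turned into CTP. Proliferating tumour cells draw on both routes for DNA and RNA, and the transcription factor MYC is a known activator of many of these genes.

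With vemurafenib, 9 of the 10 enzyme genes fell and 1, IMPDH2, rose. The falls ran from 1.25-fold for IMPDH1 to 2.76-fold for CTPS1, and the median change over all 10 was -0.84, against -0.045 over all genes tested. Across all genes, 45.5% passed the same test, 22.2% lower and 23.2% higher. For the 9 genes that fell, the vemurafenib arrays lay wholly below the vehicle arrays, as they did for 28.5% of all genes, and for IMPDH2 they lay wholly above, as for 26.9% of all genes. CTPS1 and PRPS2 were at least 2-fold lower, as were 2.62% of all genes, and 7 of the 10 lay within the lowest 5% of changes. The balance of calls over all genes depended on scaling: 4281 genes rose and 4090 fell on the deposited values, against 3682 and 5630 when each array was centred on its median. Of the enzyme genes, 1 rose and 9 fell under either scaling.

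**Figure D1:**
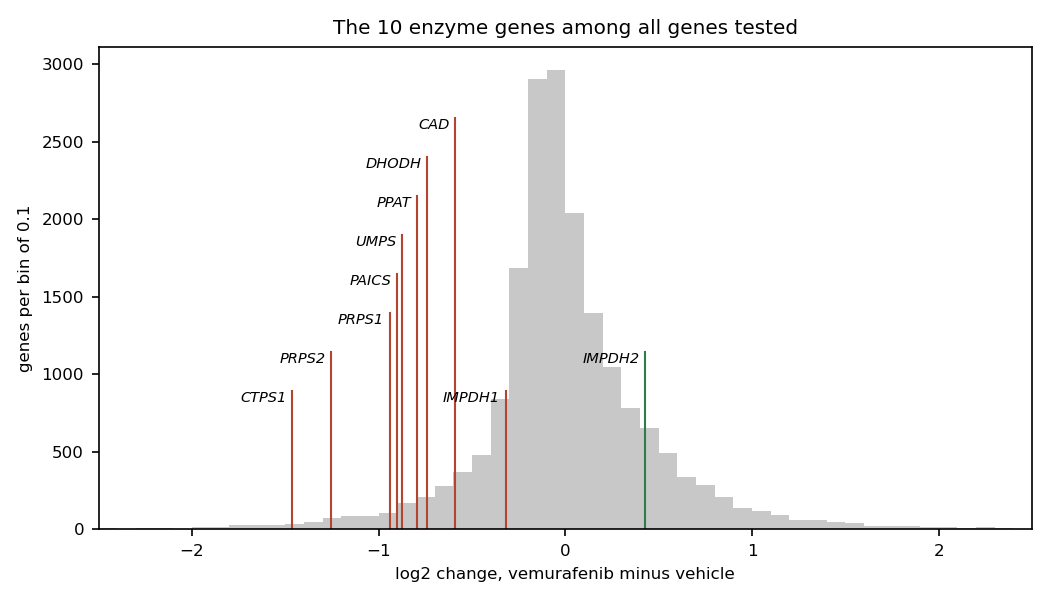
Distribution of log2 changes (vemurafenib minus vehicle, x axis) over the 18417 genes tested, in bins of 0.1. The y axis gives the number of genes per bin. The x axis is cut at -2.5 and 2.5, so genes with larger changes, down to -4.21 and up to 5.78, are not drawn. Vertical lines mark the 10 enzyme genes and their height has no meaning. Of the enzyme genes, CTPS1 (-1.46) and PRPS2 (-1.26) lie farthest to the left, and IMPDH2 (0.43) is the only one to the right of 0.

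The labelled cell type was checked against markers. Of 7 melanocytic markers measured, MITF, SOX10, S100B and CSPG4 lay above 7.28, the 95th percentile over 341 genes for olfactory receptors, taken as near-silent in this line, while PMEL, TYR and MLANA did not. Of 11 markers of keratinocytes, fibroblasts, leukocytes and endothelial cells, KRT14, COL1A1 and PDGFRB lay above it and the leukocyte and endothelial markers did not. Some of these markers differed between the groups. Of those above 7.28, PDGFRB rose by 1.08, S100B by 0.91, MITF by 0.75 and SOX10 by 0.30, and CSPG4 fell by 0.64 (limma adjusted p 2.00e-06 to 0.00753). Of those not above it, CD14 changed by -0.32 and PECAM1 by -0.33 (limma adjusted p 0.00321 and 0.0153). Their part in the enzyme genes' changes was not tested. The enzyme genes ranged from 8.21 to 12.67 over all arrays. Levels of different probe sets are not strictly comparable, so this is a rough guide. Array medians over all 33297 probe sets lay between 7.69 and 7.73. Centring each array on its median over the tested genes moved the median change over all genes from -0.045 to -0.106. Precision is limited by having 3 arrays a group. Each array was made from the same input of RNA, so a fall is relative to the other transcripts. As the samples are bulk cultures, fewer cells that express a gene and less of its RNA per cell cannot be told apart.

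The promoters show how PPAT and PAICS are arranged and which short motifs the genes carry. Sequences are from RefSeq (GRCh38.p14) and run from 250 bases before to 50 bases after each annotated start. At least 1 window was found for 9 of the genes, 12 windows in all, and IMPDH2 was not among them. Capitals mark CACGTG, the E-box that MYC with its partner MAX and several other factors can bind, and GGGCGG, the GC box of SP1-like factors, on either strand and counting overlapping matches. PPAT (minus strand) and PAICS (plus strand) lie head to head, with annotated starts 137 bases apart, and their windows share 236 bases, printed once on the plus strand. This holds for 1 of the 3 windows listed for PAICS, and the other 2 held no E-box. DHODH is shown because it also holds an E-box, and CTPS1 because it fell most. CTPS1 has 2 windows, of which the one printed holds 4 GC boxes and the other holds neither motif.
PPAT and PAICS, chr4:56435566-56435801, plus strand: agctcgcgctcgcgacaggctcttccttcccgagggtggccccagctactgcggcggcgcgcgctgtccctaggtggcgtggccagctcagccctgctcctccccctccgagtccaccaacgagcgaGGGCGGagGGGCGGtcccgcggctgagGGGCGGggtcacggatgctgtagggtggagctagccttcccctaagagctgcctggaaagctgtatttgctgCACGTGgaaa
DHODH, chr16:72008494-72008793, plus strand: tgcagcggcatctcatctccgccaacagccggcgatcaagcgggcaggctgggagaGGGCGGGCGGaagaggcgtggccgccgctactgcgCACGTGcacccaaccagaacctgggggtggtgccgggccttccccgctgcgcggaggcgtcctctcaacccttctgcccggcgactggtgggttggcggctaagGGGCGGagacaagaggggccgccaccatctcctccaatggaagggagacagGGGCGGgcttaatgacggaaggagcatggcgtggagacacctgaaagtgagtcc
CTPS1, chr1:40979446-40979745, plus strand: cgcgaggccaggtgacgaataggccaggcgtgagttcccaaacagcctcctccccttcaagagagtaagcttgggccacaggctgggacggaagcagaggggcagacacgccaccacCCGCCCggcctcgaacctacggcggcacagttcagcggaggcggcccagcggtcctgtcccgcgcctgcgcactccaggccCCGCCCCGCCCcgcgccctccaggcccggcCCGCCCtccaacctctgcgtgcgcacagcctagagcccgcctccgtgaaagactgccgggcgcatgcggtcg

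An E-box was found in 3 of the 12 windows, those of PPAT, PAICS and DHODH, and in 7.26% of the 35116 promoter windows in the table. For PPAT and PAICS it is the same CACGTG, at position -182 from the PPAT start and position 41 from the PAICS start, so these 2 windows are not independent. In DHODH it lies at -159. A GC box was found in 9 of the 12 windows, covering 8 of the genes, and in 45.0% of all windows. The windows of PRPS1, PRPS2, IMPDH1, CAD, UMPS and CTPS1 held no CACGTG, which describes these letters in these windows only, and a match is not a bound site.

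Phosphoribosyl pyrophosphate synthetases supply the activated ribose that both routes and salvage consume. PRPS2 stood at 10.63, 10.46 and 10.20 with vemurafenib, against 11.67, 11.64 and 11.75 with vehicle. All vemurafenib arrays lay at least 1.02 below the lowest vehicle array, and replicate 3 was the lowest of them. Its mean was 10.43 ± 0.21 with vemurafenib and 11.69 ± 0.05 with vehicle (SD, n = 3 each), a change of -1.26 (SE 0.10) or 2.39-fold, with a limma adjusted p of 1.52e-06. PRPS1, the other widely expressed isozyme, stood at 9.99, 10.08 and 10.20 with vemurafenib, against 11.10, 10.94 and 11.05 with vehicle. The groups lay apart here as well, with vemurafenib replicate 3 the highest of its group. PRPS1 changed by -0.94 (SE 0.08, 95% interval -1.12 to -0.76), 1.92-fold, with a limma adjusted p of 2.54e-06.

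The isozymes' changes differed by -0.31 (PRPS2 minus PRPS1), less than the spread between vemurafenib arrays. The within-array difference was 0.64, 0.38 and 0.0027 with vemurafenib, against 0.57, 0.70 and 0.70 with vehicle, and the groups overlapped (exact permutation test, 2-sided, p = 0.2, adjusted over 6 pairs 0.24). With 3 arrays a group that test cannot go below 0.1. Without vemurafenib replicate 3 the difference was -0.15. Of the genes for proteins associated with these synthetases, PRPSAP1 rose by 0.32 (SE 0.09, limma adjusted p 0.0144) and PRPSAP2 did not pass the test (-0.034, SE 0.07).

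**Figure D2:**
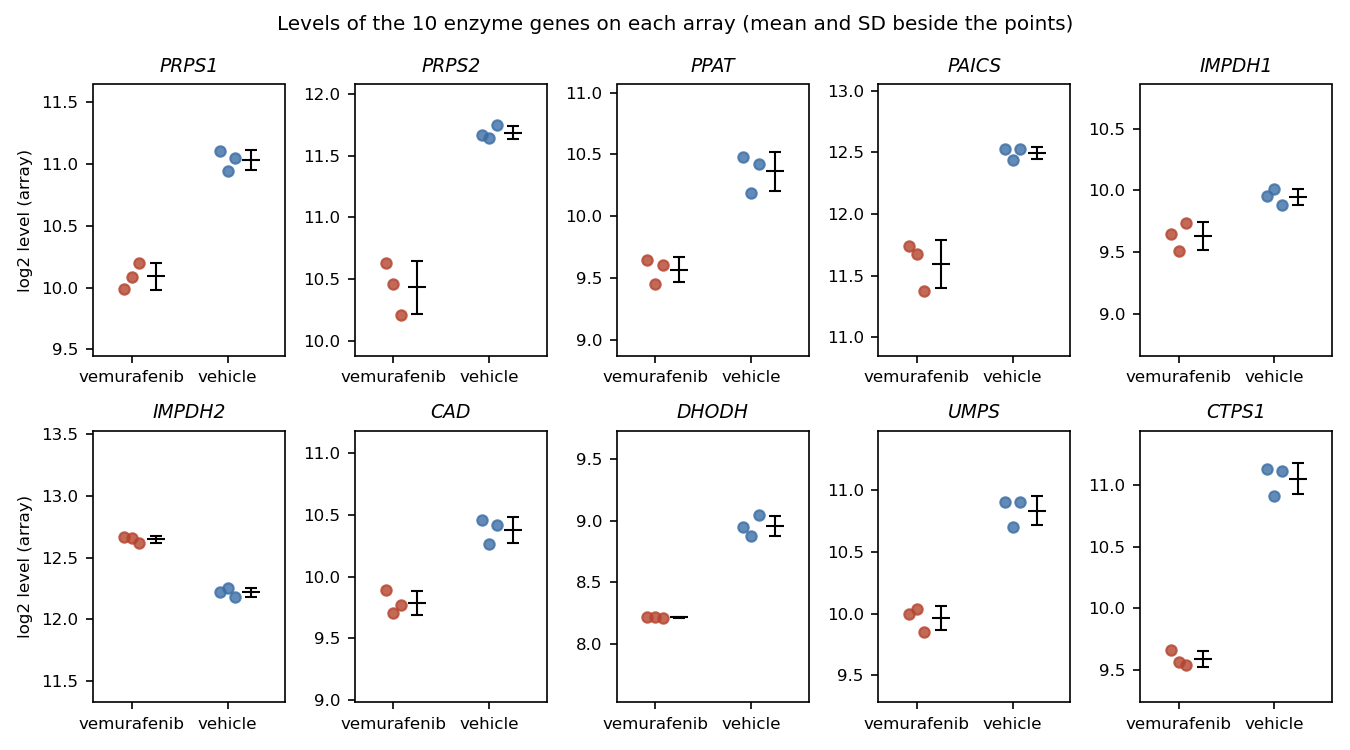
Log2 level (y axis, a range of 2.2 in every panel) of each of the 10 enzyme genes on the 3 vemurafenib arrays (left of each panel) and the 3 vehicle arrays (right); bars give mean and SD. The groups lie apart in all panels, with vemurafenib lower in 9 and higher for IMPDH2.

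PPAT, the amidotransferase that commits phosphoribosyl pyrophosphate to purines, stood at 9.64, 9.45 and 9.60 with vemurafenib, against 10.48, 10.19 and 10.43 with vehicle. The groups lay 0.54 apart. It averaged 9.57 ± 0.10 with vemurafenib and 10.36 ± 0.16 with vehicle (SD, n = 3 each), a change of -0.80 (SE 0.09) or 1.74-fold, with a limma adjusted p of 2.80e-05. PAICS, which joins a carboxylase and a synthetase of the middle of the route in a single protein, stood at 11.74, 11.68 and 11.37 with vemurafenib, against 12.53, 12.44 and 12.52 with vehicle. It fell by 0.90 on the log2 scale (SE 0.10), 1.87-fold, with a limma adjusted p of 1.44e-05, and vemurafenib replicate 3 was again low.

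A difference between the changes of these neighbouring genes was not resolved. PAICS minus PPAT was 2.09, 2.22 and 1.77 with vemurafenib, against 2.05, 2.25 and 2.10 with vehicle. The means, 2.03 ± 0.23 with vemurafenib and 2.13 ± 0.11 with vehicle (SD, n = 3 each), differed by -0.11 (exact permutation test, 2-sided, p = 0.6, adjusted 0.6). The sign of that difference rested on vemurafenib replicate 3, without which it was 0.025.

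The enzymes that turn IMP into GMP did not move together. IMPDH1 and IMPDH2 are isozymes of IMP dehydrogenase, the rate-limiting step toward guanine nucleotides, and IMPDH2 is the one usually raised in proliferating cells. IMPDH2 stood at 12.67, 12.66 and 12.62 with vemurafenib, against 12.22, 12.26 and 12.18 with vehicle. Its arrays agreed closely within each group, and the lowest vemurafenib array lay 0.36 above the highest vehicle array. The mean was 12.65 ± 0.03 with vemurafenib and 12.22 ± 0.04 with vehicle (SD, n = 3 each), a rise of 0.43 (SE 0.07, 95% interval 0.28 to 0.58) or 1.35-fold, with a limma adjusted p of 0.0003. IMPDH1 stood at 9.65, 9.51 and 9.73 with vemurafenib, against 9.95, 10.01 and 9.88 with vehicle. The gap between its groups was the narrowest of the 10 genes, 0.15, and its change of -0.32 (SE 0.08, 1.25-fold) was the smallest fall, with a limma adjusted p of 0.00659.

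On every vemurafenib array the difference IMPDH2 minus IMPDH1 exceeded that of every vehicle array. It was 3.02, 3.15 and 2.89 with vemurafenib, against 2.27, 2.25 and 2.30 with vehicle, so the isozymes' changes differed by 0.75, a 1.68-fold shift in their ratio. The exact permutation test gave p = 0.1, the smallest it allows, and 0.2 after adjustment over the 6 pairs. GMPS, which completes GMP, fell by 0.65 (SE 0.07), and ADSS1, an isozyme of the branch toward AMP, rose by 0.47 (SE 0.09), with limma adjusted p values of 1.63e-05 and 0.000993. No other isozyme of the step of ADSS1 is analysed here, so its rise does not stand for the step.

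The remaining enzymes between PPAT and IMP all fell. The changes were -0.81 for PFAS, -0.67 for GART, -0.56 for ADSL, which acts both here and in the AMP branch, and -0.56 for ATIC, which closes the ring (SE 0.07 each). Their limma adjusted p values ran from 3.40e-06 to 8.95e-05. Over the 8 measured genes of the purine route outside the 10, 5 fell, 2 rose and 1 did not pass, with a median change of -0.56. Across all genes, 22.2% fell and 23.2% rose.

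**Figure D3:**
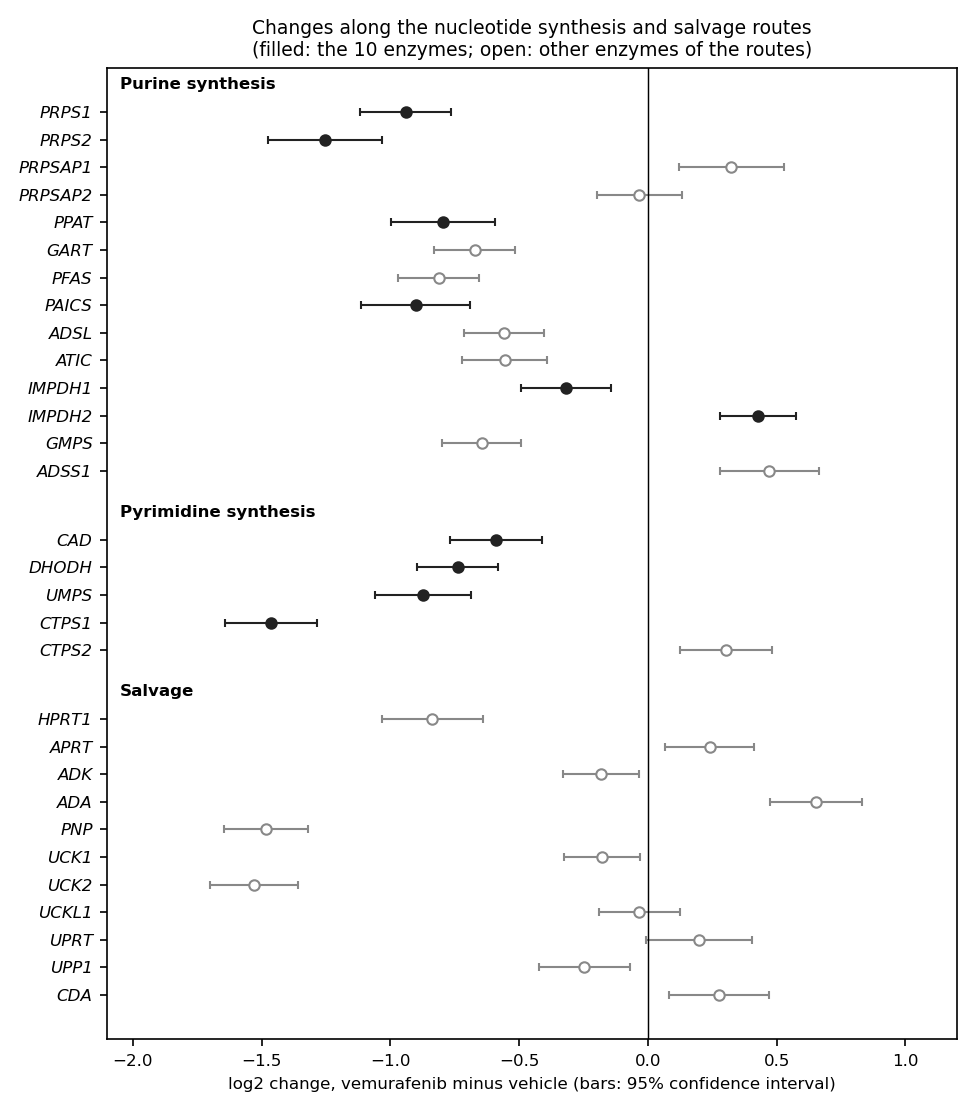
Log2 change, vemurafenib minus vehicle (x axis), with its 95% confidence interval, for enzymes of purine synthesis, pyrimidine synthesis and salvage, in pathway order; filled points are the 10 enzyme genes and open points the other measured genes. Points left of 0 are lower with vemurafenib; IMPDH2, ADSS1, PRPSAP1 and CTPS2 lie to the right among synthesis genes.

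In the pyrimidine route, all 4 enzyme genes fell. CAD, the protein that carries the opening enzyme activities of the route, stood at 9.89, 9.70 and 9.77 with vemurafenib, against 10.46, 10.26 and 10.42 with vehicle. The groups lay 0.37 apart, and the change was -0.59 (SE 0.08) or 1.51-fold, with a limma adjusted p of 0.000113. DHODH, the mitochondrial enzyme that oxidizes dihydroorotate and the target of leflunomide, stood at 8.22, 8.22 and 8.21 with vemurafenib, against 8.95, 8.87 and 9.04 with vehicle. Its vemurafenib arrays differed by less than those of any other of these genes (SD 0.0057). The change was -0.74 (SE 0.07), 1.67-fold, with a limma adjusted p of 6.94e-06.

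UMPS, which makes UMP from orotate, stood at 10.00, 10.04 and 9.85 with vemurafenib, against 10.91, 10.70 and 10.90 with vehicle. The groups lay 0.66 apart, and the change was -0.87 (SE 0.08) or 1.83-fold, with a limma adjusted p of 6.67e-06. CAD, DHODH and UMPS act in that order. The differences between the changes of consecutive enzymes were small: CAD minus DHODH changed by 0.15 (exact permutation p = 0.2, adjusted 0.24, groups overlapping) and UMPS minus DHODH by -0.13 (exact permutation p = 0.1, adjusted 0.2, groups apart). With quantile normalization repeated over the 6 arrays they were 0.22 (exact permutation p = 0.1) and -0.055 (exact permutation p = 0.5), so neither was settled.

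CTPS1, the CTP synthase on which dividing lymphocytes depend, had the largest change of the 10 genes. It stood at 9.66, 9.56 and 9.54 with vemurafenib, against 11.13, 10.91 and 11.11 with vehicle. All vemurafenib arrays lay at least 1.25 below the lowest vehicle array. The mean was 9.59 ± 0.06 with vemurafenib and 11.05 ± 0.12 with vehicle (SD, n = 3 each), a change of -1.46 (SE 0.08, 95% interval -1.64 to -1.28), with a limma adjusted p of 9.73e-08. Only 0.94% of all genes had a change as low or lower.

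CTPS2, its isozyme, stood at 9.97, 10.00 and 9.89 with vemurafenib, against 9.76, 9.52 and 9.67 with vehicle. It rose by 0.30 (SE 0.08, 1.23-fold, limma adjusted p 0.00951). CTPS1 minus CTPS2 was -0.31, -0.44 and -0.34 with vemurafenib, against 1.37, 1.39 and 1.44 with vehicle. This was the widest separation among the 6 pairs, a difference of -1.77 or a 3.4-fold shift in their ratio (exact permutation p = 0.1, the smallest possible, adjusted 0.2). Whether probes of either isozyme also detect the other was not tested.

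**Figure D4:**
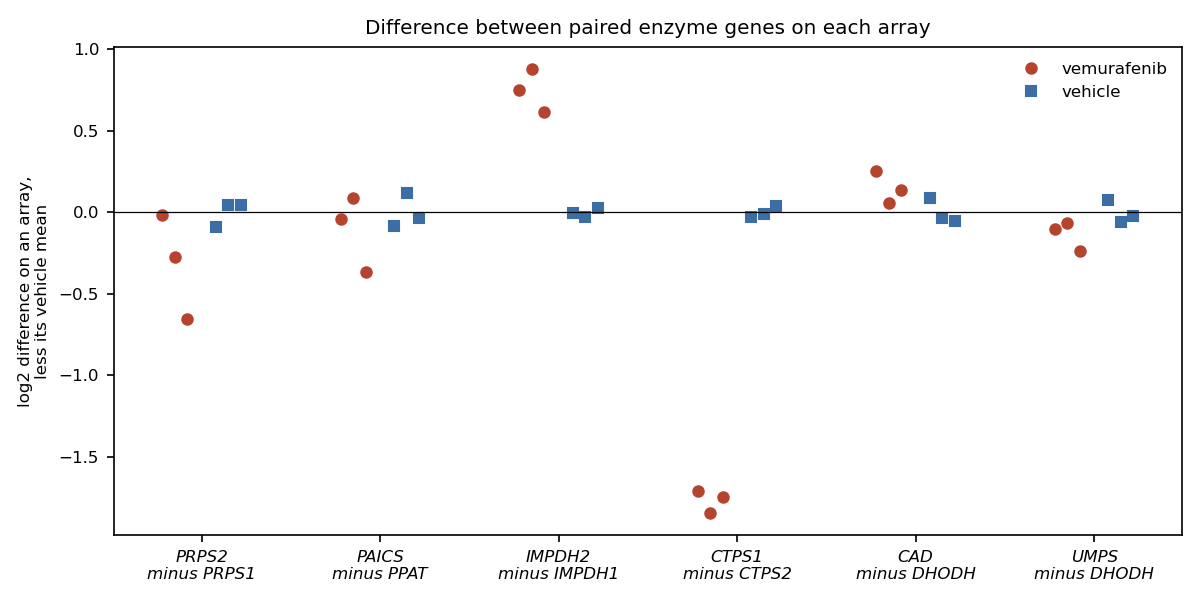
Within-array log2 difference between 2 enzyme genes for 6 pairs, less the pair's vehicle mean (y axis), on vemurafenib arrays (circles, left) and vehicle arrays (squares, right). Vemurafenib arrays lie apart from vehicle arrays for IMPDH2 minus IMPDH1 (upward) and for CTPS1 minus CTPS2 and UMPS minus DHODH (downward), and overlap with them for the other 3 pairs.

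Within groups, 2 arrays were the lowest for most of the enzyme genes, a pattern that was not tested. Vehicle replicate 2 was the lowest vehicle array for 8 of the 10 genes, IMPDH1 and IMPDH2 being the exceptions, whereas over all genes it was the lowest for 44.7%. The median deviation of the 10 genes from their vehicle mean on that array was -0.085, against -0.013 over all genes. Among vemurafenib arrays, replicate 3 was the lowest for 6 of the 10 genes, against 33.4% of all genes, with the widest deviations for PRPS2 and PAICS. It was the highest for 2, PRPS1 and IMPDH1, and the median deviation of the 10 genes there was -0.024, against 0.011 over all genes. Cultures were made in batches, and whether these 2 arrays share a batch cannot be told from the labels. Over all genes their deviations correlated at 0.279, the highest value between any vemurafenib and any vehicle array. A shared batch was not tested. Deviations of the enzyme genes within groups lay between -0.23 and 0.20. Changes of the 8 genes other than the IMPDH pair were at least 0.59 in size. Without vehicle replicate 2, or without any other single array, the counts were still 9 lower and 1 higher.

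**Figure D5:**
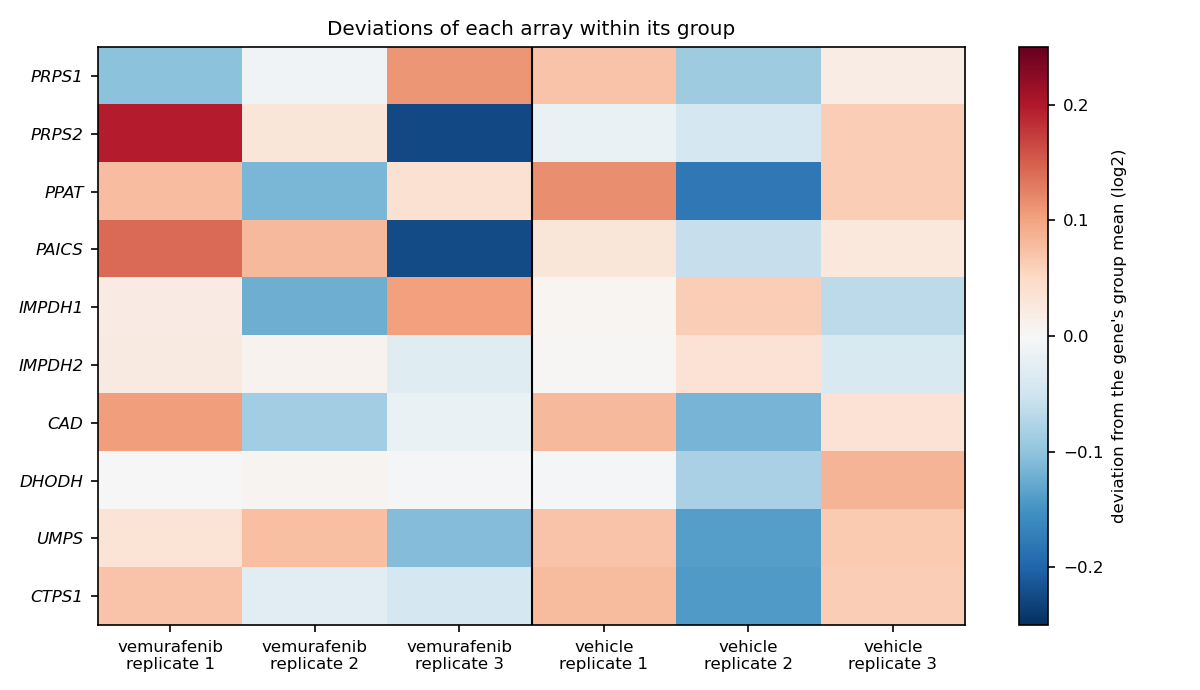
Deviation of each array (columns, vemurafenib left and vehicle right) from the mean of its group, for each of the 10 enzyme genes (rows), as colour on a log2 scale. Vehicle replicate 2 is below its group mean for 8 genes, and the deepest negative values are those of PRPS2 and PAICS on vemurafenib replicate 3.

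Other genes of nucleotide metabolism, and 3 regulators, were taken from lists chosen for their function, with earlier results of these data known. Of 64 listed genes 57 were measured, the 8 purine route genes described above among them. The other 7 are not analysed here. Of these 57, 21 fell and 14 rose, whereas over all genes 22.2% fell and 23.2% rose. Those shares are also the background for the counts of each list below. The median change of the 57 was -0.034, near the -0.045 of all genes. Of 11 salvage genes, 6 fell and 3 rose, with a median of -0.18. UCK2, the kinase that recovers uridine and cytidine, fell 2.89-fold (-1.53, SE 0.08), and PNP, the phosphorylase that splits purine nucleosides, 2.80-fold (-1.48, SE 0.07). UCK2 stood at 9.91, 9.90 and 9.96 with vemurafenib, against 11.55, 11.32 and 11.48 with vehicle, and these groups lay far apart. HPRT1, which recovers hypoxanthine and guanine, fell 1.79-fold (-0.84, SE 0.09). Limma adjusted p values were 5.09e-08 for UCK2, 4.37e-08 for PNP and 1.45e-05 for HPRT1. ADA, adenosine deaminase, rose by 0.65 (SE 0.08, limma adjusted p 5.28e-05), APRT by 0.24 and CDA, cytidine deaminase, by 0.27 with both means below 7.28. UPP1, ADK and UCK1 changed by -0.25, -0.18 and -0.18, and several alternative fits did not call these 3, APRT or CDA.

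Of 10 genes in the list of nucleotide kinases and CTPS2, 5 rose and 1 fell, with a median of 0.16. AK4, a mitochondrial adenylate kinase, fell 2.37-fold (-1.25, SE 0.10, limma adjusted p 1.80e-06), while AK1 and AK3 rose by 0.52 and 0.38. NME3 and NME4, of the nucleoside diphosphate kinase family, rose by 0.67 and 0.33. Among 13 genes of breakdown and interconversion, 3 fell, 1 rose and 9 did not pass. GDA, guanine deaminase, fell 2.22-fold (-1.15, SE 0.10, limma adjusted p 2.86e-06), XDH, xanthine dehydrogenase, fell by 0.54 with both means below 7.28, NT5C3A fell by 0.26 and GMPR rose by 0.27. NT5C3A lost its call in 4 alternatives and GMPR in 3.

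The pentose phosphate pathway supplies the ribose phosphate that PRPS enzymes use. Of its 6 measured genes, 2 fell and 2 rose, with a median of 0.11. RPIA, the isomerase that makes ribose phosphate, fell by 0.75 (SE 0.08, limma adjusted p 2.12e-05) and RPE fell by 0.26, while PGLS rose by 0.43 and TALDO1 by 0.33. Of 6 nucleoside transporter genes, 2 fell and 1 rose. SLC29A1, which encodes the equilibrative transporter ENT1, fell 2.43-fold (-1.28, SE 0.08, limma adjusted p 2.39e-07), SLC28A3 fell by 0.28 at a dim level of 5.82 with vemurafenib and 6.10 with vehicle, and SLC29A3 rose by 0.22, a call lost in 6 alternatives.

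Among 3 regulators listed, MYC and E2F1, which drives genes of S phase entry, fell. MYC stood at 7.61, 7.50 and 7.62 with vemurafenib, against 9.10, 8.84 and 8.84 with vehicle (-1.35, SE 0.09, limma adjusted p 2.83e-07). E2F1 stood at 8.23, 8.47 and 8.72 with vemurafenib, against 10.06, 10.07 and 10.09 with vehicle (-1.60, SE 0.11, limma adjusted p 4.14e-07). ATF4, a stress-response activator, did not pass the test (0.0069, SE 0.07). The part of either in the enzymes' changes was not tested.

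The genes whose pattern over the 6 arrays was most like that of CTPS1, by the root mean square difference of gene-centred log2 values, were CHAF1A (0.038), ZGRF1 (0.042) and MCM3 (0.043). They changed by -1.52, -1.44 and -1.50. For IMPDH2 they were SHOC1 (0.015), HPS1 (0.015) and APOBEC3C (0.019), with changes of 0.43, 0.44 and 0.42. In each search, closeness in change followed from the way the genes were picked. SHOC1 lay at 5.14 with vemurafenib and 4.71 with vehicle, below the 7.28 taken from olfactory receptor genes in both groups.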

How the data were processed

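RNA of 6 A375 cultures was measured on Affymetrix arrays. Values were deposited as log2 levels, 1 for each probe set, and came from RMA and Partek, per the submitters' processing notes. Versions, genome build and any batch handling by the authors: not given in the sources used here. The table held 33297 probe sets, of which 19460 carried 1 gene symbol in the platform annotation, 1754 several and 12083 none. For each of 18417 genes the probe set brightest on average was used, without a filter on dim genes. Columns of other samples numbered 0.

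Groups came from the sample titles. Tests were 2-sided: limma 3.58.1 in R 4.3.3 (lmFit and eBayes, prior degrees of freedom 7.08, group as the only term, Benjamini-Hochberg over all genes, threshold 0.05), and exact permutation tests over arrays for 6 gene pairs. The design text pairs dishes within lettered batches, but a single array carries a letter, so pairing was left out. A fold is the antilog of the absolute log2 change. The enzyme genes, lists, pairs and motifs were chosen with earlier results of these data known. All 10 enzymes and any listed gene could be named, with the 3 genes most like the largest fall and the largest rise. Alternatives were a replicate block (statmod 1.5.0 for a random block), other scalings, filters on dim genes, other probe set rules, other limma settings, a threshold of 0.01 and leaving out each array in turn. The fit was tested on simulated data with 50 changed genes at each size of log2 change. It recovered 4 at 0.25, 32 at 0.5, 48 at 1.0 and 50 at 2.0, with 6 false calls. Most changes of 0.25 were therefore missed in that simulation. Figures used Python 3.11.15, pandas 2.3.3, numpy 2.4.6, scipy 1.17.1 and matplotlib 3.10.9. The line's genotype is not reported here.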

Additional observations from a re-analysis of the deposited data

How the results depend on the processing

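The counts of 9 enzyme genes lower and 1 higher held in all 17 alternatives, and each of the 10 genes kept its direction and its call in each of them. Several alternatives could alter only the call, as they left the enzyme genes' changes the same. These were both replicate blocks, the filters on dim genes, the probe set rules, the intensity trend with robust eBayes and the threshold of 0.01. The widest adjusted p range was that of IMPDH1 (limma, 0.00169 to 0.0288, with changes of -0.38 to -0.26); that of IMPDH2 reached 0.0022 (0.37 to 0.49). Of the 35 other listed genes that passed, 11 lost the call in at least 1 alternative: UCK1 in 11, ADK in 9, APRT and SLC29A3 in 6, UPP1 in 5, CDA and NT5C3A in 4, GMPR in 3, and PRPSAP1, RPE and SLC28A3 in 2. With the replicate number as a replicate block, 3989 of all genes rose and 3617 fell, and the enzyme counts stayed at 1 and 9. The numbers were not taken as pairs in the main fit, because a single array carries a batch letter. Deviations of same-numbered arrays from their group means correlated over genes at 0.142, -0.184 and -0.251. Such deviations cancel out within a group, so positive values for some pairs of arrays bring negative values for others. The signs are therefore not independent. Vemurafenib replicate 3 correlated best with vehicle replicate 2 (0.279) and vemurafenib replicate 2 with vehicle replicate 3 (0.225). The labels do not give that pairing and no block was fitted on it, so the block above may not follow the batches. With that block the smallest p for a gene pair was 0.25. Leaving out single arrays moved PAICS minus PPAT between -0.20 and 0.025. The value 0.025, without vemurafenib replicate 3, was the only pair difference to change sign, and the cause was not tested. The ranges were -0.46 to -0.15 for PRPS2 minus PRPS1, 0.68 to 0.81 for IMPDH2 minus IMPDH1, -1.79 to -1.73 for CTPS1 minus CTPS2, 0.097 to 0.20 for CAD minus DHODH and -0.17 to -0.083 for UMPS minus DHODH. Quantile normalization repeated over the arrays went further for these last pairs, to 0.22 and -0.055, with exact permutation p up to 0.5. With 3 arrays a group no pair test could pass 0.05, and small differences between enzymes could not be resolved.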
